A study of Mus musculus with 10 samples.

Results

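The 4 genes described here are Npm1, Npm3, Ncl and Xpo1, taken by symbol from the 16771 genes that each of 10 RNA-seq libraries lists, and 4 of 4 were found. RNA came from bone marrow cells of mice of the C57BL/6 strain. There were 5 groups, each with 2 biological replicates. Each library gives a level in RPKM, the reads of a gene divided by a gene length and by the library's read total. Wild-type (WT) HSPC and WT neutrophils carried no mutation. HSPC are stem and progenitor cells, the cells left after a magnetic kit took out those of mature lineages; the neutrophils were purified with a magnetic kit. The 3 mutant HSPC groups were Npm1c (Npm1flox-cA/+;Mx1-Cre+), Flt3-ITD (Flt3ITD/+) and the double mutant (Npm1flox-cA/+;Flt3ITD/+;Mx1-Cre+). Mx1-Cre is a recombinase driven by an interferon-inducible promoter that acts in marrow and other tissues. It is in the genotype of the Npm1c and double mutant groups only, so its presence and that of the Npm1 allele cannot be told apart. The labels give no age, no sex and no induction schedule.

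Nucleophosmin, the product of Npm1, is an abundant nucleolar chaperone that shuttles between nucleolus, nucleoplasm and cytoplasm and handles ribosomal particles and histones. The leukaemia-associated mutant protein, called NPM1c, loses its nucleolar localisation signal and gains a nuclear export signal. The exportin encoded by Xpo1 binds such signals together with the GTP-bound form of Ran and carries its cargo out through the nuclear pore, so the mutant protein accumulates in the cytoplasm. Npm3 encodes the smallest relative in the nucleoplasmin family, a nucleolar protein that binds nucleophosmin. Ncl encodes nucleolin, an RNA-binding protein needed for the transcription and processing of ribosomal RNA. RPKM values of a gene sum over its alleles, so the Npm1 level below is the total of normal and mutant transcripts and does not check whether the allele had recombined. All values are of RNA; export and protein location were not measured.

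Coordinates are those of GRCm38 with the GENCODE M21 annotation. Npm1 (ENSMUSG00000057113.13) lies on the minus strand of chromosome 11 from 33152287 to 33163206, with 6 annotated transcripts. Xpo1 (ENSMUSG00000020290.14) lies on the plus strand of the same chromosome from 23256041 to 23298249, with 7. Npm3 (ENSMUSG00000056209.7) is on the minus strand of chromosome 19 from 45747734 to 45749591 and overlaps the antisense gene Gm15491. Ncl (ENSMUSG00000026234.12) is on the minus strand of chromosome 1 from 86344719 to 86359400, and the small RNA genes Snora75, Snord82 and Gm24148 and the microRNA gene mmu-mir-3535 lie within it. Whether reads were counted by strand is not given in the sources used here, so reads of Npm3 and Ncl and of the genes that overlap them cannot be told apart.

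The levels of all 4 genes were lower in double mutant HSPC and in neutrophils, and the promoters of 3 of them are printed. The promoter set used here had no entry for Npm1. Each is the 250 bases before the RefSeq start on GRCm38.p6, read 5′ to 3′ on the gene's strand. For Npm3 and Ncl this start differs from the GENCODE one given above. The Npm3 window therefore runs into the gene as given there, and the Ncl window ends short of it. The windows are chr19:45749566-45749815 on the minus strand for Npm3, chr1:86359456-86359705 on the minus strand for Ncl and chr11:23255791-23256040 on the plus strand for Xpo1. Capitals mark matches to the GC box GGGCGG, the CCAAT box CCAAT or the E-box CACGTG, searched on both strands, so that CCGCCC in capitals is a GC box on the other strand.
Npm3: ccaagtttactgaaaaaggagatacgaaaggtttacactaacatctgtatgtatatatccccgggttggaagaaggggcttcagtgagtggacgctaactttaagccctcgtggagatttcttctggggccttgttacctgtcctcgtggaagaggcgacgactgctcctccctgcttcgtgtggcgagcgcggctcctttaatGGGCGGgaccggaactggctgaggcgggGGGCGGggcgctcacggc
Ncl: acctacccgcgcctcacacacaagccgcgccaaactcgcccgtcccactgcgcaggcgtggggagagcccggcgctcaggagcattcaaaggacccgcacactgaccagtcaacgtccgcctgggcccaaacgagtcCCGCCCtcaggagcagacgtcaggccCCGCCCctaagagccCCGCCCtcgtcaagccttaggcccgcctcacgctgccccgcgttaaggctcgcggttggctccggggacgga
Xpo1: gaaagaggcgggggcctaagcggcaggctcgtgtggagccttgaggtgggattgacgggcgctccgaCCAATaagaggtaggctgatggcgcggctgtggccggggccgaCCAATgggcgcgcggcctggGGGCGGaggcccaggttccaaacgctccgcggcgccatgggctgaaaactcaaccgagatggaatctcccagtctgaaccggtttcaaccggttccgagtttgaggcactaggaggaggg
Npm3 has 2 GC boxes, Ncl has 3, and Xpo1 has 1 GC box and 2 CCAAT boxes. None of the 3 windows holds CACGTG, the letters of the E-box bound by MYC and its relatives. Among 32851 RefSeq promoter windows of the same length, 32.7% hold a GC box, 33.8% a CCAAT box and 6.02% this E-box. G and C make up 56.4% of the Npm3 window, 69.6% of the Ncl window and 65.2% of the Xpo1 window. A match is a run of letters and not a measured binding site.

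WT HSPC held Npm1 at 289 and 284 RPKM, Npm1c HSPC at 265 and 295 RPKM, and Flt3-ITD HSPC at 286 and 283 RPKM. In double mutant HSPC it was 146 and 142 RPKM, and in neutrophils 19.0 and 19.9 RPKM. The WT, Npm1c and Flt3-ITD libraries overlapped, both double mutant libraries lay below all 6 of them, and both neutrophil libraries lay lowest. The double mutant mean, 144 ± 2.58 RPKM (SD, n = 2), was 50.3% of the WT mean of 287 ± 3.72 RPKM (SD, n = 2), and the neutrophil mean was 6.79% of it. Npm1 rested on 4777 to 101404 reads per library, whose counting error alone is 0.314% to 1.45%.

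WT HSPC held Npm3 at 32.9 and 34.2 RPKM, Npm1c HSPC at 30.9 and 29.4 RPKM, and Flt3-ITD HSPC at 30.2 and 30.0 RPKM. Both double mutant libraries were lower, at 18.1 and 18.4 RPKM, and neutrophils held 2.95 and 3.16 RPKM. The 2 WT libraries were above all others, the single mutants overlapped each other, and the double mutant and then the neutrophils lay below them without overlap. Relative to WT, the Npm1c mean was 89.9%, the Flt3-ITD mean 89.8%, the double mutant mean 54.5% and the neutrophil mean 9.10%. It was the least deeply covered of the genes, with 191 to 3140 reads per library and a counting error of 1.78% to 7.24%.

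Ncl varied most between replicates. WT HSPC held it at 52.9 and 37.1 RPKM, Npm1c HSPC at 41.7 and 50.5 RPKM, and Flt3-ITD HSPC at 42.2 and 41.4 RPKM. The WT pair spans every value of both single mutants, and its SD is 24.8% of its mean, although the WT libraries held 41139 and 30143 Ncl reads. In the double mutant Ncl was 28.1 and 28.8 RPKM, below all of the other HSPC libraries, and in neutrophils 4.14 and 4.16 RPKM. These are 63.2% and 9.22% of the WT mean of 45.0 ± 11.2 RPKM (SD, n = 2).

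Xpo1 had another order. Its level was highest in Npm1c HSPC, at 21.5 and 23.3 RPKM, then 19.5 and 20.1 RPKM in Flt3-ITD and 19.0 and 18.2 RPKM in WT HSPC. The double mutant followed at 12.2 and 11.96 RPKM, and neutrophils at 5.03 and 5.06 RPKM. No 2 groups overlapped, but Flt3-ITD and WT HSPC, neighbours in this order, did not differ beyond their spread in the test given below. The Npm1c mean was 120.9% of the WT mean of 18.6 ± 0.557 RPKM (SD, n = 2), the double mutant mean 65.2% and the neutrophil mean 27.2%.

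**Figure D1:**
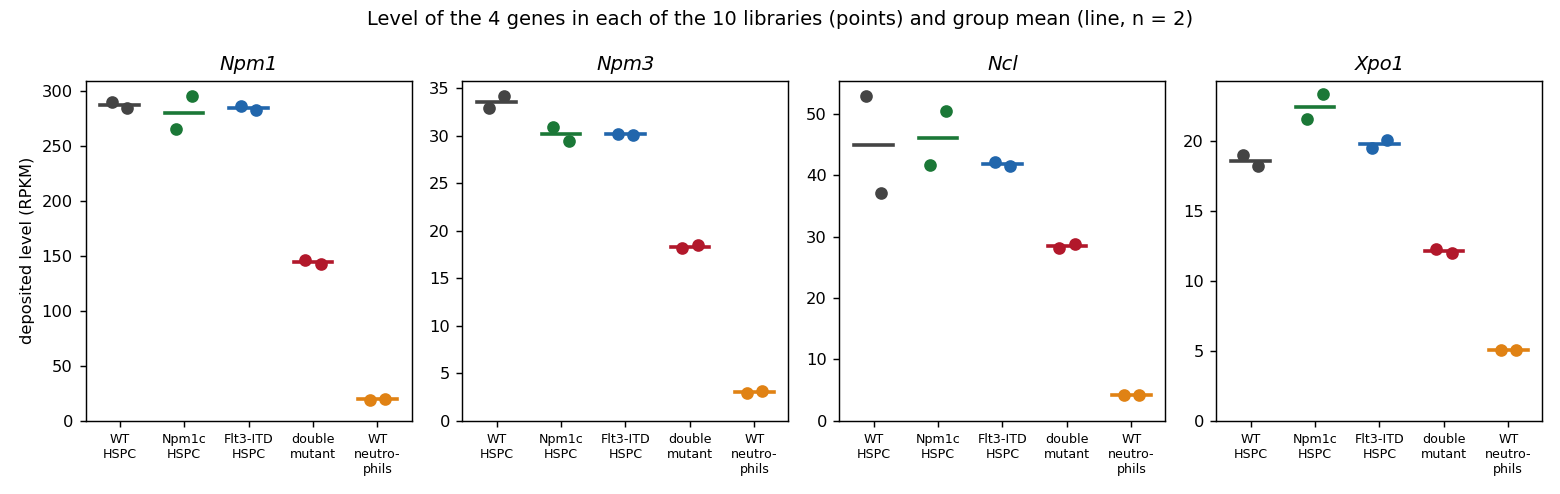
Level of each gene in RPKM (vertical axes from 0, one scale per gene) in the 2 libraries of each group; points are libraries and lines are group means. The 2 double mutant libraries lie below all 6 other HSPC libraries in every panel, the neutrophil libraries lie lowest, and the 2 WT points of Ncl, 52.9 and 37.1 RPKM, lie far apart.

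Levels of different genes were set side by side only per base of their merged exons, because the length the authors divided by grew with the number of annotated transcripts (it was 2.32 times the merged exon length for Npm1, 1.34 for Npm3, 1.38 for Ncl and 3.27 for Xpo1). On that scale, in RPKM recomputed for the merged exons, WT HSPC held 664 for Npm1, 62.1 for Ncl, 60.6 for Xpo1 and 44.9 for Npm3. Npm1 ranked 38 among 16024 genes in WT HSPC, 78 in the double mutant and 708 in neutrophils. Npm3 ranked 750, 1297 and 5193, and Ncl 498, 755 and 4279, in the same groups. Xpo1 ranked 518, 747 and 1899, and thus stood above Ncl and Npm3 in neutrophils while it was level with Ncl in WT HSPC. In WT HSPC the difference between Ncl and Xpo1 lies within the spread of the 2 Ncl libraries.

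For the comparisons, changes were taken on the log2(RPKM + 0.5) scale, fitted with limma and adjusted over all genes tested. The test took genes that reached 1 RPKM in 2 or more of the fitted libraries, and 4 of 4 members passed. The median tested gene shifted between groups, by -0.26 (Npm1c), -0.14 (Flt3-ITD), -0.34 (double mutant) and -0.70 (neutrophils) against WT HSPC. The share of the read total on listed genes was lowest in Npm1c, at 60.9% to 63.1%, and highest in neutrophils, at 81.3% to 81.4%. Flt3-ITD had 63.5% to 69.6%, the double mutant 67.1% to 67.5% and WT HSPC 74.2% to 74.5%. A "relative" change below is the log2 change minus that of the median tested gene, and rose or fell refers to the test on the deposited scale. Each adjusted p belongs to the deposited change, also where it stands beside a relative change. The 3 mutant groups were compared with the same 2 WT libraries. In bulk RNA, fewer cells of a type and less RNA per cell cannot be told apart. Y-linked transcripts were above 1 RPKM in 2 libraries, replicate 2 of Npm1c and replicate 1 of Flt3-ITD, so the replicates of each of these groups differed in Y-linked RNA.

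The first comparison sets Npm1c HSPC, with the allele and Mx1-Cre, against WT HSPC. Of the 4 genes, Xpo1 rose and Npm3 fell, while the changes of Npm1 and Ncl did not pass; over all 9702 genes tested, 60.6% passed, 2.49% higher and 58.1% lower. The Xpo1 change was 0.27 ± 0.056 (log2 ± SE, adjusted p = 0.00728), or 0.53 relative to the median gene (95% interval 0.39 to 0.66), and 98.0% of tested genes had a lower value. Without WT replicate 2 it was 0.24 and its adjusted p was 0.0548. Npm3 fell by 0.15 ± 0.048 (log2 ± SE, adjusted p = 0.0308), which is less than the fall of the median gene. After scaling libraries by the median of their gene ratios the Npm3 change was 0.14. The Npm3 call was also lost without WT replicate 1, WT replicate 2, Npm1c replicate 2 or either double mutant library, with adjusted p up to 0.162. Total Npm1 changed by -0.04 ± 0.061 (log2 ± SE, adjusted p = 0.621), with a relative change of 0.22 (95% interval 0.08 to 0.37). With the other scaling Npm1 was at 0.26, with adjusted p = 0.0163. Ncl changed by 0.05 ± 0.16 (log2 ± SE, adjusted p = 0.795), with a 95% interval of -0.33 to 0.43, and its sign depended on the WT library: -0.20 without WT replicate 2 and 0.30 without WT replicate 1. Under median-of-ratios scaling the genes that passed, 38.3% of those tested, were 18.2% higher and 20.1% lower.

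In Flt3-ITD HSPC only Npm3 passed, at an adjusted p of 0.0479; 33.1% of tested genes passed, 1.86% higher and 31.3% lower. Npm3 fell by 0.15 ± 0.048 (log2 ± SE), which is a relative change of -0.01, the same as the median gene to within its error. Its value under median-of-ratios scaling was 0.02. The call was lost without either WT library, either double mutant library, either Npm1c library or Flt3-ITD replicate 2, with adjusted p up to 0.234. Npm1 changed by -0.01 (95% interval -0.16 to 0.13, adjusted p = 0.896) and Ncl by -0.08 (95% interval -0.46 to 0.30, adjusted p = 0.727). The Ncl change was 0.17 without WT replicate 1 and -0.34 without WT replicate 2. Xpo1 changed by 0.09 (95% interval -0.04 to 0.22, adjusted p = 0.257), or 0.23 relative to the median gene. Median-of-ratios scaling gave 0.26 for it, with adjusted p = 0.0386. Under that scaling 17.9% of tested genes passed, 8.24% higher and 9.65% lower.

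In double mutant HSPC all 4 genes fell against WT HSPC, in a comparison in which 82.8% of tested genes passed, 58.9% of them lower and 23.9% higher, as shares of all tested. Npm1 fell by 0.99 ± 0.061 (log2 ± SE, adjusted p = 6.25e-06), a relative change of -0.65 (95% interval -0.80 to -0.51), and 10.8% of tested genes had a lower value. The fall of Npm3 was 0.86 ± 0.048 on the log2 scale as deposited (adjusted p = 3.95e-06), with a relative change of -0.52 (95% interval -0.63 to -0.41). Xpo1 fell by 0.60 ± 0.056 (log2 ± SE, adjusted p = 4.80e-05), with a relative change of -0.26 (95% interval -0.39 to -0.13). Ncl fell by 0.63 ± 0.16 (log2 ± SE, adjusted p = 0.00798), but its relative change of -0.29 has a 95% interval from -0.67 to 0.09. Under median-of-ratios scaling the Ncl value was -0.29 with adjusted p = 0.129, while the other 3 calls held. WT replicates weighed on Ncl: its change was -0.38 without WT replicate 1 and -0.88 without WT replicate 2. Xpo1 and Ncl, with 31.6% and 29.0% of tested genes below them, stood nearer to the median gene than Npm1. Under median-of-ratios scaling 77.6% of tested genes passed, 37.3% higher and 40.3% lower.

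Markers of cell types and of the cell cycle also differed between these groups. The summed level of 6 monocyte and macrophage markers was 749 to 754 RPKM in the double mutant, against 68.3 to 68.4 RPKM in WT HSPC, 31.8 to 34.98 RPKM in Npm1c and 74.9 to 105 RPKM in Flt3-ITD. Markers of cycling cells, 7 genes in all, summed to 285 to 286 RPKM in the double mutant and 559 to 562 RPKM in WT HSPC, with 317 to 340 RPKM in Npm1c and 378 to 420 RPKM in Flt3-ITD. The sum of 8 stem and progenitor markers was 88.2 to 89.3 RPKM in the double mutant and 117 to 118 RPKM in WT HSPC. It was 95.7 to 98.5 RPKM in Npm1c and 90.9 to 132 RPKM in Flt3-ITD. In the double mutant 4 of the 8 had a mean of at least 1 RPKM and Cd48 was highest, against 6 and Myb in WT HSPC. Erythroid markers, 8 in all, summed to 1022 to 1042 RPKM in the double mutant and 657 to 696 RPKM in WT HSPC. They summed to 449 to 698 RPKM in Npm1c and 472 to 635 RPKM in Flt3-ITD. Mature neutrophil markers, 10 in all, summed to 56.8 to 75.5 RPKM in WT HSPC, 88.4 and 413 RPKM in Npm1c replicates 1 and 2, 259.9 to 300.02 RPKM in Flt3-ITD and 88.5 to 104 RPKM in the double mutant. No marker of these lists was at 0 in a whole group. Npm1c replicate 2, the library with 413 RPKM, also holds Y-linked RNA; without it the Npm1c changes against WT were 0.21 for Xpo1, -0.11 for Npm1, -0.12 for Npm3 and -0.086 for Ncl. The part of these cells in the values of the 4 genes was not tested.

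The double mutant also lay below each single mutant. Against Npm1c HSPC 4 of 4 genes fell, where 77.4% of tested genes passed, 34.4% higher and 43% lower, and against Flt3-ITD HSPC 4 of 4 fell, where 77.4% passed, 28.6% higher and 48.8% lower. Relative to the median gene, Npm1 changed by -0.86 against Npm1c (adjusted p = 9.05e-06) and -0.80 against Flt3-ITD (adjusted p = 8.96e-06). Xpo1 changed by -0.77 (adjusted p = 9.53e-06) and -0.51 (adjusted p = 2.99e-05), and Npm3 by -0.62 (adjusted p = 1.15e-05) and -0.53 (adjusted p = 1.28e-05). For Ncl the relative changes were -0.59 (adjusted p = 0.00615) and -0.37 (adjusted p = 0.0161), the latter with a 95% interval of -0.75 to 0.01. The Ncl call against Flt3-ITD was lost without double mutant replicate 1 (adjusted p = 0.0666) or 2 (adjusted p = 0.0550), or when libraries were scaled by the median of ratios (adjusted p = 0.0574).

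The interaction asks whether the double mutant departs from the sum of both single changes on the log2 scale, and 66.8% of tested genes passed, 39.2% higher and 27.6% lower. That balance of 3800 higher and 2680 lower turned with scaling, to 3023 and 4297 under listed-gene scaling and 2802 and 4790 under quantile scaling, and was 3549 and 3521 under median-of-ratios scaling. The interaction was negative for the 4 genes and passed for 3. It was -0.95 ± 0.080 for Xpo1 (log2 ± SE, adjusted p = 5.98e-05), -0.94 ± 0.087 for Npm1 (adjusted p = 9.42e-05) and -0.55 ± 0.068 for Npm3 (adjusted p = 3.57e-04). Only 4.30% of tested genes had a lower interaction value than Xpo1 and 4.43% a lower one than Npm1. For Ncl it was -0.60 ± 0.23 (log2 ± SE, adjusted p = 0.0504), -0.85 without WT replicate 1 and -0.35 without WT replicate 2. The direction for Xpo1 differs between its contrasts with WT: it rose in Npm1c, gave 0.09 in Flt3-ITD and fell in the double mutant.

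**Figure D2:**
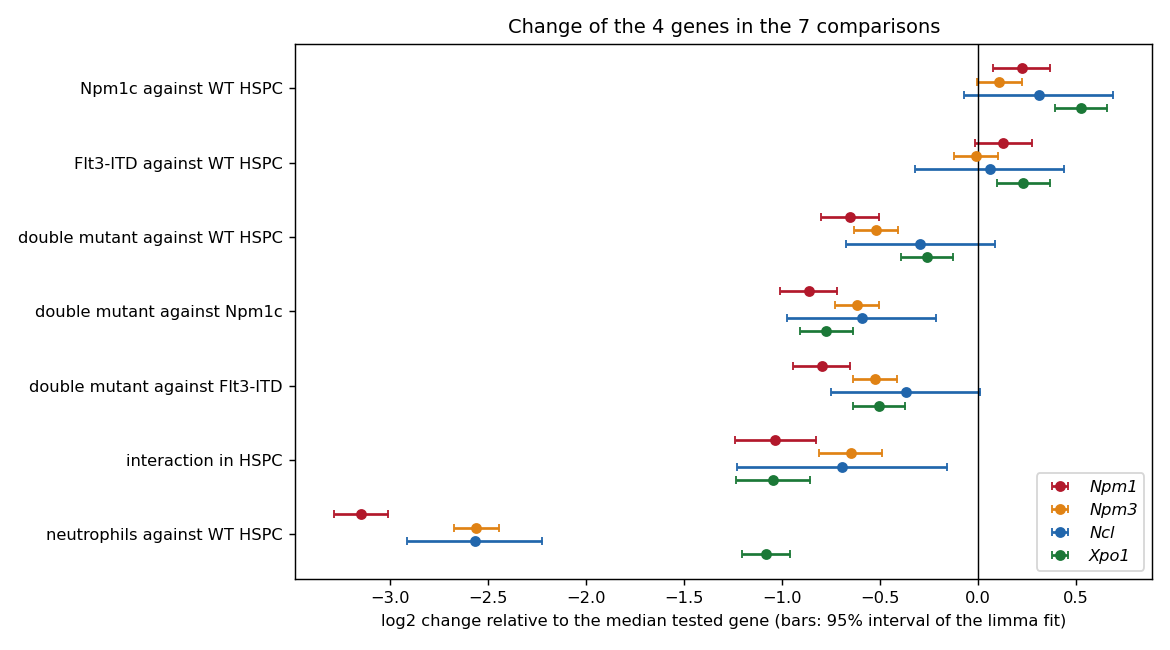
Log2 change of each gene relative to the median tested gene (horizontal axis) in the 7 comparisons; points are limma estimates and bars their 95% intervals. The 4 genes lie left of 0 in the comparisons of the double mutant and in neutrophils, with Npm1 farthest left in neutrophils at -3.15 and Xpo1 nearest to 0 there at -1.08; the wide bars of Ncl reflect its spread between replicates.

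Mature neutrophils are short-lived cells that have left the cell cycle. All 4 genes fell in WT neutrophils against WT HSPC, where 91.2% of 10174 tested genes passed, 62.8% lower and 28.4% higher. As a ratio of mean RPKM, Npm1 was 14.7-fold lower, Npm3 10.98-fold, Ncl 10.8-fold and Xpo1 3.68-fold. Npm1 fell by 3.85 ± 0.059 (log2 ± SE, adjusted p = 3.20e-10), a relative change of -3.15, and only 0.0786% of tested genes had a lower value. Npm3 had a relative change of -2.56 (adjusted p = 3.05e-10) and Ncl one of -2.57 (adjusted p = 6.26e-08), each with under 1% of tested genes below it (0.973% and 0.934%). Xpo1 had a relative change of -1.08 (adjusted p = 4.22e-09), with 19.4% of genes below it. Neutrophil markers summed to 99129 to 99403 RPKM in the neutrophil libraries, which fits the label of these cells. Stem and progenitor markers summed to 14.8 to 15.6 RPKM there, with 4 of the 8 at a mean of at least 1 RPKM and Myb highest. Cycling markers summed to 137 to 141 RPKM, with all 7 above 1 RPKM and Mki67 highest, and erythroid markers to 469 to 489 RPKM. The part of cells with these markers in the changes was not tested. Under median-of-ratios scaling 90.5% of genes passed, 44.6% higher and 45.9% lower, and the 4 calls held.

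Ratios of reads within a library do not depend on the library total. Npm1 gave 4.02 and 4.11 reads per Xpo1 read in WT HSPC, 3.86 and 3.70 in Flt3-ITD HSPC, 3.24 and 3.32 in Npm1c, 3.14 and 3.13 in the double mutant and 0.992 and 1.04 in neutrophils. The ratio was lower in both groups with the Npm1c allele and Mx1-Cre than in both HSPC groups without them. It was lowest in neutrophils, and no groups overlapped. The 2 genes moved differently in those 2 mutant groups. In Npm1c the mean of Npm1 was 97.6% of WT and that of Xpo1 120.9%. In the double mutant both were lower, at 50.3% and 65.2%. Per Npm3 read, the WT HSPC libraries gave 34.1 and 32.3 reads of Npm1, Npm1c 33.3 and 38.9, Flt3-ITD 36.8 and 36.5, the double mutant 31.3 and 30.0, and neutrophils 25.01 and 24.5. The Npm1c pair overlapped both the WT and the Flt3-ITD pair, which did not overlap each other, and the double mutant lay below all 3. Ncl gave 1.67 and 1.22 reads per Xpo1 read in WT HSPC, a span that holds all other HSPC libraries except Npm1c replicate 1 (1.16), and 0.493 in each neutrophil library. No test was run on these ratios.

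**Figure D3:**
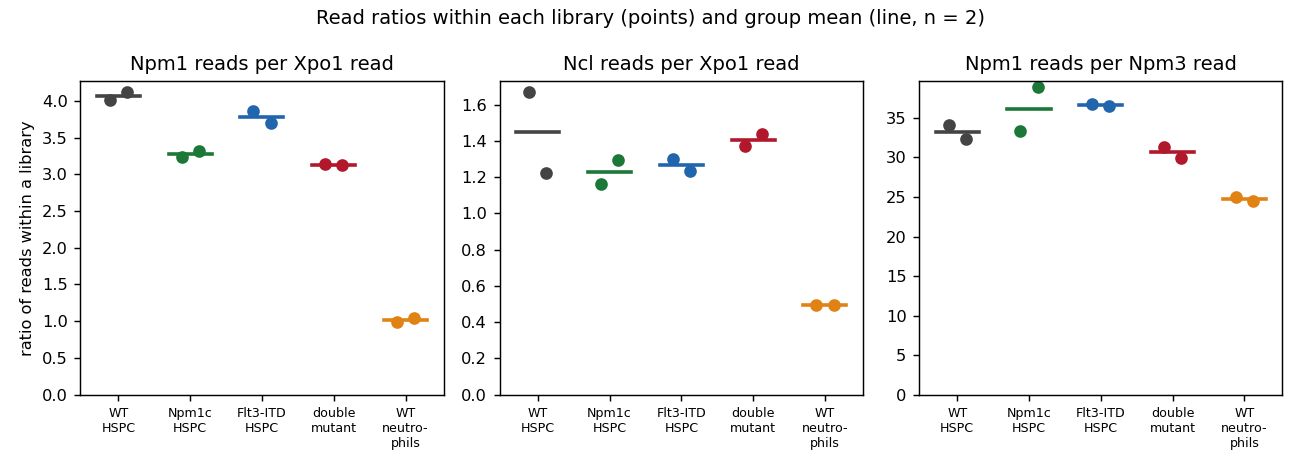
Reads of one gene per read of another within each library (vertical axes from 0); points are libraries and lines are group means. Npm1 per Xpo1 falls into an upper set (WT and Flt3-ITD HSPC, 3.70 to 4.11), a middle set (Npm1c and double mutant HSPC, 3.13 to 3.32) and the neutrophils near 1, whereas Npm1 per Npm3 stays between 30.0 and 38.9 in HSPC.

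The other genes of nuclear transport were read from a list of 22 karyopherins, the importins and exportins other than Xpo1. In the double mutant 19 fell and 1 rose, with a median relative change of -0.29, against 58.9% of all tested genes lower. Under median-of-ratios scaling 16 fell and 3 rose, where 40.3% of all tested genes were lower and 37.3% higher. Shares under that scaling, also for the lists below, were 20.1% lower and 18.2% higher in Npm1c and 9.65% and 8.24% in Flt3-ITD. In neutrophils they were 45.9% and 44.6%. On the deposited scale 23.9% of all tested genes were higher in the double mutant, 2.49% in Npm1c, 1.86% in Flt3-ITD and 28.4% in neutrophils. The rise on the deposited scale was Kpna4, an importin alpha, at 0.65 ± 0.056 (relative log2 ± SE, adjusted p = 0.00142), from 10.6 to 13.2 RPKM. The fall with the smallest p was Xpot, the exportin of transfer RNA, at -0.90 ± 0.044 (relative log2 ± SE, adjusted p = 5.92e-07), from 35.7 to 14.8 RPKM. Cse1l, which returns importin alpha to the cytoplasm, fell from 16.1 to 8.55 RPKM (relative change -0.54, adjusted p = 3.10e-06), and Kpnb1, importin beta, from 88.7 to 63.3 RPKM (relative change -0.15, adjusted p = 1.63e-04). Xpo7 and Ipo13, named after their values were seen, did not pass, at 0.50 and -0.07 on the deposited log2 scale. Xpo7 passed under listed-gene scaling (0.60) and median-of-ratios scaling (0.75), with the 2 groups alone and without either Npm1c library. The sign of Ipo13 turned under 3 other scalings and without WT replicate 1.

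In Npm1c HSPC, where 2.49% of all tested genes were higher and 58.1% lower, 3 of the 22 karyopherins rose and 8 fell. The median relative change of the 22 was 0.18. Under median-of-ratios scaling, where 18.2% of all tested genes were higher and 20.1% lower, 11 rose and 0 fell. The 3 that rose, named after their values were seen, were Kpna4 with a relative change of 0.82 (adjusted p = 7.82e-04), Kpna3 with 0.62 (adjusted p = 0.00478) and Kpnb1 with 0.43 (adjusted p = 0.0381). The Kpnb1 call was lost without WT replicate 1 or 2, Npm1c replicate 2 or either double mutant library, with a replicate block and with no filter, with adjusted p up to 0.197. In Flt3-ITD HSPC, where 31.3% of all tested genes were lower, 8 fell and 0 rose by limma, with 10 and 0 at an unadjusted p under 0.05, 9 and 0 by limma voom on recovered reads, and 0 fell and 1 rose under median-of-ratios scaling. In neutrophils 19 fell and 2 rose, where 62.8% of all tested genes were lower, with a median relative change of -1.03. The rises were Kpna4 (relative change 1.10, adjusted p = 1.12e-04) and, named after its values were seen, Xpo6, an exportin of actin and profilin (relative change 1.57, adjusted p = 2.53e-07).

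The GTPase Ran gives transport its direction. Of 20 genes of the Ran cycle and the nuclear pore, 19 were tested and 19 fell in the double mutant, with a median relative change of -0.40, where 58.9% of all tested genes were lower; none rose by limma, by limma voom or at an unadjusted p under 0.05 (0 of 19 each), and under median-of-ratios scaling 14 fell and 1 rose. Ran itself was 98.6 ± 1.33 RPKM in WT HSPC and 55.1 ± 0.0490 RPKM in the double mutant (SD, n = 2), a relative change of -0.49 ± 0.044 (adjusted p = 3.15e-06). Rcc1, which loads Ran with GTP on chromatin, fell from 9.88 to 5.06 RPKM (relative change -0.56, adjusted p = 1.45e-05). The pore scaffold Nup155 fell most surely, from 38.6 to 14.5 RPKM (relative change -1.04 ± 0.051, adjusted p = 6.83e-07). Nup214, a cytoplasmic pore protein that binds the Xpo1 exportin, fell from 8.54 to 5.37 RPKM (relative change -0.29, adjusted p = 6.97e-05). In Npm1c HSPC 12 fell and 0 rose (median relative change 0.05), where 58.1% of all tested genes were lower, with 13 and 0 unadjusted and by limma voom, and under median-of-ratios scaling 5 rose and 4 fell. In Flt3-ITD HSPC 12 fell and 0 rose, against 31.3% of all tested genes lower, also unadjusted and by limma voom, and under median-of-ratios scaling 3 fell and 2 rose. In neutrophils 19 of 19 fell, against 62.8% of all tested genes, also by limma voom, with a median relative change of -1.43.

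Among 18 nucleolar proteins, which share the compartment of nucleophosmin and nucleolin, 17 fell and 0 rose in the double mutant (also unadjusted and by limma voom), with a median relative change of -0.41, where 58.9% of all tested genes were lower. Under median-of-ratios scaling 14 fell and 0 rose. The smallest p belonged to Nop56, a core protein of box C/D small nucleolar particles, with a relative change of -0.69 ± 0.046 (adjusted p = 1.54e-06). The methyltransferase gene Fbl fell by 0.28 on the deposited log2 scale at an adjusted p of 0.0499, where its relative change was 0.06, and its value was 0.07 under median-of-ratios scaling. That Fbl call was also lost under listed-gene and quantile scaling, with no filter and with a replicate block. The same held without WT replicate 1 or without any single Npm1c or double mutant library. Tcof1, named after its values were seen, did not pass, at -0.24 on the deposited log2 scale and 0.08 under median-of-ratios scaling. It passed with the 2 groups alone, without either Flt3-ITD library and with the Y-linked term. In neutrophils 18 of 18 fell, against 62.8% of all tested genes, also under median-of-ratios scaling, with a median relative change of -2.39, the lowest of the 5 lists; Fbl had a relative change of -3.03 and Nop56 of -2.37. In Npm1c HSPC 9 fell and 0 rose, where 58.1% of all tested genes were lower (11 and 0 unadjusted, 10 and 0 by limma voom, 4 and 5 under median-of-ratios scaling). In Flt3-ITD HSPC 11 fell and 0 rose, where 31.3% were lower (13 and 0 unadjusted, 12 and 0 by limma voom, 5 and 0 under median-of-ratios scaling).

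Of 18 histone chaperone genes, 17 were tested, and 14 fell and 0 rose in the double mutant, also unadjusted and by limma voom, with a median relative change of -0.35, where 58.9% of all tested genes were lower; under median-of-ratios scaling 12 fell and 2 rose. Hjurp, the chaperone that deposits the centromeric histone variant, had a relative change of -1.34 ± 0.046 (adjusted p = 1.72e-07). The 3 that did not pass, named after their values were seen, were Anp32b at -0.36, Daxx at -0.06 and Supt6 at -0.13 on the deposited log2 scale. The sign of Daxx and Supt6 turned under 3 other scalings, and both passed as higher under median-of-ratios scaling, at 0.24 and 0.21, while Supt6 passed as lower with the 2 groups alone. Anp32b turned sign without WT replicate 1 and passed at -0.75 without WT replicate 2. Npm2, the egg member of the nucleoplasmin family, was at most 0.0993 RPKM in every library and was not tested. In Npm1c HSPC 12 fell and 0 rose, where 58.1% of all tested genes were lower (12 and 1 unadjusted, 12 and 0 by limma voom, 4 and 3 under median-of-ratios scaling), and in Flt3-ITD HSPC 10 fell and 0 rose, where 31.3% were lower (11 and 0 unadjusted, 10 and 0 by limma voom, 4 and 2 under median-of-ratios scaling). In neutrophils 16 fell and 0 rose, where 62.8% of all tested genes were lower, also unadjusted and by limma voom, and 13 fell and 4 rose under median-of-ratios scaling. Hjurp did not pass in neutrophils, at 0.06 on the deposited log2 scale (adjusted p = 0.221), a relative change of 0.76. It passed at 0.90 under median-of-ratios scaling and at 0.28 under quantile scaling, and was at -0.070 under listed-gene scaling.

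The last list held 9 genes of proteins reported to bind NPM1 or its mutant form, of which 8 were tested. In the double mutant 6 fell and 1 rose, with a median relative change of -0.05, where 58.9% of all tested genes were lower, and under median-of-ratios scaling 3 fell and 2 rose. The rise was Spi1, which encodes the myeloid transcription factor PU.1, from 8.64 to 30.1 RPKM, a relative change of 2.08 ± 0.21 (adjusted p = 1.84e-04). In neutrophils its relative change was 4.002. Trp53, the tumour suppressor p53, fell from 16.5 to 10.2 RPKM (relative change -0.34, adjusted p = 8.29e-05). Myc, a driver of ribosome production, fell from 6.59 to 3.91 RPKM (relative change -0.35, adjusted p = 1.26e-04). Mdm2, the ubiquitin ligase of p53, named after its values were seen, did not pass, at 0.06 on the deposited log2 scale, and passed at 0.18 under listed-gene and 0.35 under median-of-ratios scaling. Cdkn2a was listed at 0 in both Npm1c libraries, at 0.207 and 0.344 RPKM in the double mutant and at most 0.0141 RPKM elsewhere. In Npm1c HSPC 6 fell and 2 rose, where 58.1% of all tested genes were lower, and 3 fell and 2 rose under median-of-ratios scaling. The rises, named after their values were seen, were Myc (relative change 0.57, adjusted p = 0.0140) and Mdm2 (relative change 0.46, adjusted p = 0.0431). Both calls were lost without either WT library; that of Myc also without Npm1c replicate 1, that of Mdm2 without Npm1c replicate 2 or either double mutant library, with the Y-linked term, with a replicate block and with no filter. In Flt3-ITD HSPC 4 fell and 0 rose, where 31.3% of all tested genes were lower (5 and 0 unadjusted, 4 and 0 by limma voom, 2 and 1 under median-of-ratios scaling). In neutrophils 5 fell and 3 rose, where 62.8% of all tested genes were lower, and 3 fell and 4 rose under median-of-ratios scaling. Besides Spi1 the 3 were, named after their values were seen, Mdm2 (relative change 1.88, adjusted p = 2.09e-07) and Hexim1 (relative change 1.13, adjusted p = 1.39e-04).

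**Figure D4:**
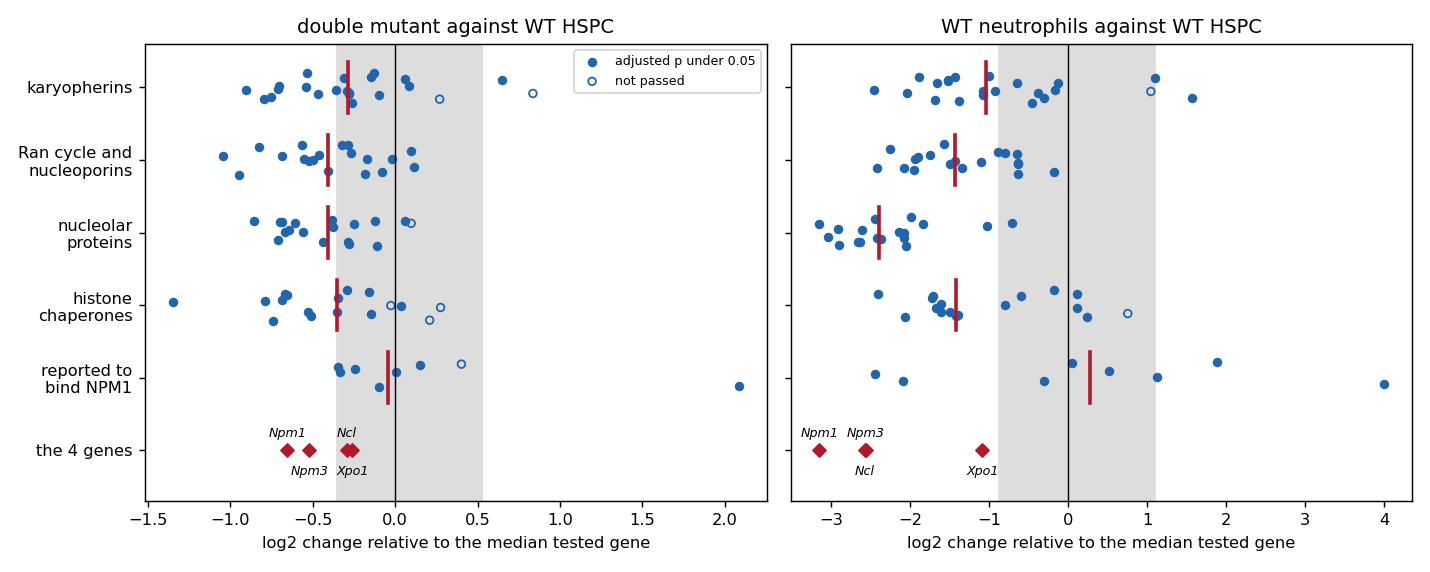
Log2 change relative to the median tested gene (horizontal axis) of the tested genes of the 5 lists (circles, filled where adjusted p is under 0.05) and of the 4 genes (diamonds), for the double mutant (left) and neutrophils (right); red lines are list medians and the grey band is the interquartile range of all tested genes. In neutrophils the medians of the karyopherins (-1.03), Ran cycle and nucleoporins (-1.43), histone chaperones (-1.42) and nucleolar proteins (-2.39) lie left of the grey band. Spi1 lies far right in both panels, at 2.08 and 4.002.

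Each profile over the 10 libraries was compared with those of 3828 other genes that reached 10 RPKM in 2 or more libraries. Names of predicted genes, small RNAs and pseudogenes were left out. The genes most like Npm1 were Gnl3, Bzw2, Srm, Mif and Hspd1. Their root mean square differences from Npm1, on the centred log2(RPKM + 0.5) scale, were 0.050, 0.086, 0.091, 0.098 and 0.12. Gnl3, which encodes the nucleolar GTPase nucleostemin, had a mean of 63.4 RPKM in WT HSPC, and the Npm1c, Flt3-ITD, double mutant and neutrophil means were 64.0, 59.5, 30.7 and 3.93 RPKM. Ncl ranked 55 and Npm3 61 in likeness to Npm1, while Xpo1 ranked 855 with a difference of 0.76. Nearest to Npm3 were Hspbp1 (0.053), Impdh2 (0.056) and Wdr18 (0.065), and nearest to Ncl were Noc3l (0.13), Rrp12 (0.13) and Mybbp1a (0.13). Nearest to Xpo1 were Zfp800 (0.059), Twistnb (0.074) and Otud6b (0.076). The points of these profiles share library totals and are dominated by the step from HSPC to neutrophils, so likeness is a description of levels.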

How the data were processed

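RNA-seq was made from 10 libraries in 5 groups of 2. The authors deposited RPKM per gene and library. STAR 2.4.0, HTSeq, DiffBind and mm10 are named per the submitters' processing notes, without roles. RPKM values are whole multiples of 1 read, and whole reads were recovered for 16655 of 16655 genes above 0 in at least 2 libraries (tolerance 0.02 reads); recovered library totals ran from 40783015 to 57824373 reads. The recovered divisor equals the summed exon lines (end minus start) of all GENCODE M21 transcripts for the 4 genes and for 63.7% of 15933 genes. It cancels in changes between libraries but not in levels between genes, which were recomputed on merged exons.

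Tests used limma 3.58.1 (R 4.3.3, with Python 3.11.15 for tables) on log2(RPKM + 0.5), with a variance trend and Benjamini-Hochberg adjustment at 0.05, over 9702 genes (8 HSPC libraries) or 10174 genes (10 libraries). The fit was tested on simulated data. Genes named are the members, the list gene with the smallest p in each direction in the double mutant, 10 fixed genes and the nearest profiles. After their values were seen, 13 genes were named because counts were small. Kpna4, Kpnb1 and Myc are among these and also fall under the earlier rules. The members and lists were chosen with earlier results of these data known. P-values measure the spread between replicates. That spread was estimated from all 8 HSPC libraries together (all 10 for neutrophils), so libraries outside a comparison also affect its calls. Counting error covers counting only. Alternatives were other scalings, pseudocounts, filters, a replicate block, limma voom on recovered reads, 2 groups alone, single libraries left out and, added after the data were seen, a Y-linked term.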

Additional observations from a re-analysis of the deposited data

Results flagged for a closer look

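In 3 of the 4 genes the Flt3-ITD effect with the Npm1c allele and Mx1-Cre differed from that without them. The test was the interaction in limma on the deposited log2 scale, where 66.8% of all tested genes passed, 39.2% higher and 27.6% lower. The difference was -0.95 for Xpo1, -0.94 for Npm1 and -0.55 for Npm3. Both double mutant libraries lay below both libraries of every other HSPC group for these genes. Mean levels in the single mutants were 97.6% and 99.1% of WT for Npm1, 89.9% and 89.8% for Npm3 and 120.9% and 106.6% for Xpo1, in Npm1c and Flt3-ITD.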

How the results depend on the processing

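Over the 28 results of the 4 genes, 455 of 508 alternatives kept direction and side of the threshold, 23 lost the call, 10 gained it and 20 turned sign. Direction was fixed in advance with no filter, a replicate block, 2 groups alone or a library outside the comparison left out. Those settings leave the estimate as it is and can move only its adjusted p, so their agreement in direction carries no weight. No alternative turned the sign of a double mutant, interaction or neutrophil result of the 4 genes. Scaling moved small changes. In Npm1c, listed-gene, median-of-ratios and quantile scaling gave 0.22, 0.26 and 0.10 for Npm1 and 0.11, 0.14 and 0.11 for Npm3. In Flt3-ITD they gave 0.15, 0.16 and 0.037 for Npm1, 0.0058, 0.021 and -0.00245 for Npm3, 0.077, 0.092 and 0.060 for Ncl, and 0.25, 0.26 and 0.26 for Xpo1, now past the threshold. Npm3 in Flt3-ITD was -0.16 by limma voom on recovered reads, -0.15 with 2 groups alone and -0.14 with the Y-linked term, each without the call; Ncl in Npm1c was -0.024 with that term. Median-of-ratios scaling ended the Ncl calls against WT (-0.29) and Flt3-ITD (-0.38). The Ncl interaction passed by limma voom (-0.61), listed-gene (-0.88), median-of-ratios (-0.72) and quantile scaling (-0.80) and a pseudocount of 0.1 (-0.61). The cause of these moves was not tested. The interaction could not be fitted with 2 groups alone.

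Genes called in Npm1c were 5880, and 3734, 3716 and 3478 under the 3 scalings; in Flt3-ITD they were 3213, and 1783, 1735 and 1698, or 837 with 2 groups alone. Median-of-ratios scaling moved the lower share of calls from 95.9% to 52.6% in Npm1c, 94.4% to 53.9% in Flt3-ITD, 71.2% to 51.9% in the double mutant, 63.0% to 51.6% in the double mutant against Flt3-ITD, and 68.8% to 50.7% in neutrophils. Listed-gene and quantile scaling moved the Npm1c share to 60.5% and 46.4%, that of Flt3-ITD to 60.1% and 57.5% and that of the interaction from 41.4% to 58.7% and 63.1%; quantile scaling gave 58.1% for neutrophils. Hjurp in neutrophils was -0.070 under listed-gene scaling, and Fbl and Tcof1 in the double mutant 0.067 and 0.079 under median-of-ratios scaling. Under listed-gene, median-of-ratios and quantile scaling, Ipo13 was 0.061, 0.24 and 0.079, Daxx 0.065, 0.24 and 0.073, and Supt6 0.010, 0.21 and 0.11. Without each library in turn, Ipo13 ranged from -0.14 to 0.0074 and Anp32b from -0.75 to 0.020.

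Leaving out each library in turn gave, in Npm1c, -0.11 to 0.041 for Npm1, -0.19 to -0.12 for Npm3, -0.20 to 0.30 for Ncl and 0.21 to 0.32 for Xpo1. In Flt3-ITD it gave -0.026 to 0.00082 for Npm1, -0.18 to -0.13 for Npm3 and -0.34 to 0.17 for Ncl. Ncl ranged from -0.57 to -0.53 for the double mutant against Flt3-ITD and from -0.85 to -0.35 for the interaction. Genes called ranged from 3407 to 7114 in Npm1c and 482 to 5666 in Flt3-ITD. Where 1 library was left in a group, it is assumed to vary like the others.

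Replicate numbers share no stated origin. Deviations of same-numbered libraries correlated from -0.111 to 0.107 over 10174 genes, so the numbers were not taken to pair them. With a replicate block the Npm3 calls were lost in Npm1c (-0.15, adjusted p = 0.0581) and Flt3-ITD (-0.15, adjusted p = 0.0884), and no other call of the 4 genes changed.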
